A study of Mus musculus with 50 samples.

Results

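The step from postnatal day 4 (P4) to postnatal day 13 (P13) was read out in 5 RNA-seq libraries of mouse spinal motor neuron nuclei, 3 at P4 and 2 at P13, out of 50 libraries in the series. The members were all libraries that the labels name as RNA of these 2 ages, with every nucleus in them. Both ages came from untreated C57BL/6 mice trans-heterozygous for Chat-Cre and SUN1-sfGFP-Myc. In these mice Cre made under the choline acetyltransferase gene switches on a GFP-tagged nuclear envelope protein, so that cholinergic nuclei can be pulled down with an antibody on beads. By the study's methods each library pooled the brachial and lumbar cord of several animals, with both sexes in each experiment. Animals within a library thus cannot be told apart, and the p-values below measure the spread between such pools. The tag also marks spinal cholinergic neurons that are not motor neurons. The 13 other in vivo RNA libraries, from E10.5 to 2 years, entered the fit to estimate the spread between replicates. Among these, the E10.5 libraries were whole cells sorted from Hb9-GFP embryos, not nuclei, and the p-values rest in part on their spread too. The 3 libraries at P21 were also used to see whether a level at P13 was kept. At all ages but E10.5 the values are nuclear RNA, which holds unspliced and nascent transcripts beside finished messages.

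Motor neurons are the spinal cholinergic cells that drive skeletal muscle. By birth their axons have reached muscle, and in the following weeks a newborn neuron that fires slowly and still grows becomes a large cell with a thick myelinated axon, a fast action potential and secure release at the neuromuscular junction. In the same weeks glycine receptors exchange their alpha subunit, extra synapses on each muscle fibre are removed, and alpha motor neurons, which contract muscle, take on fast or slow types, while gamma motor neurons serve the muscle spindle.

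Library totals were 4175977, 4379045 and 3820978 expected counts at P4 and 10576316 and 5664102 at P13, so that the P13 libraries were deeper. Properties of the libraries also moved with age. The mean fragment length, taken from the effective lengths in the files, was 268 and 271 bases at P13 against 212 to 247 at P4 and 207 to 227 at P21, and among the other ages only E13.5, at 269 and 276, was as long. Reads in Gm26917, a noncoding locus that collects ribosomal RNA, made at most 1.36% of the P13 libraries, 2.08% to 3.12% of the P4 libraries and 2.09% to 2.77% of the P21 libraries. Gm42418, another such locus, held 66595, 70403 and 70625 at P4 and 5736 and 4865 at P13, and 32869, 34379 and 33022 at P21. Eif4a1, a translation initiation factor whose introns encode small nucleolar RNAs, held 667, 831 and 1105 at P4 and 6485 and 5607 at P13, 789, 1156 and 1526 at P21, and 7012 and 5891 at E13.5. The labels give no batch, and P13 and the library property cannot be told apart, so P21 or the mean of P4 and P21 is set beside P13 for many of the groups below. Xist, the RNA of the inactive X chromosome, was at 5.64 normalised counts in P4 replicate 1 against 8467 and 6850 in the other P4 libraries and 3451 and 1571 at P13. P4 replicate 1 thus showed little sign of female nuclei, unlike the pooling of both sexes that the methods describe. The labels give no sex, and the sexes in the P4 pools may differ. Without P4 replicate 1, 732 genes were called higher and 965 lower in the test given below.

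**Figure D1:**
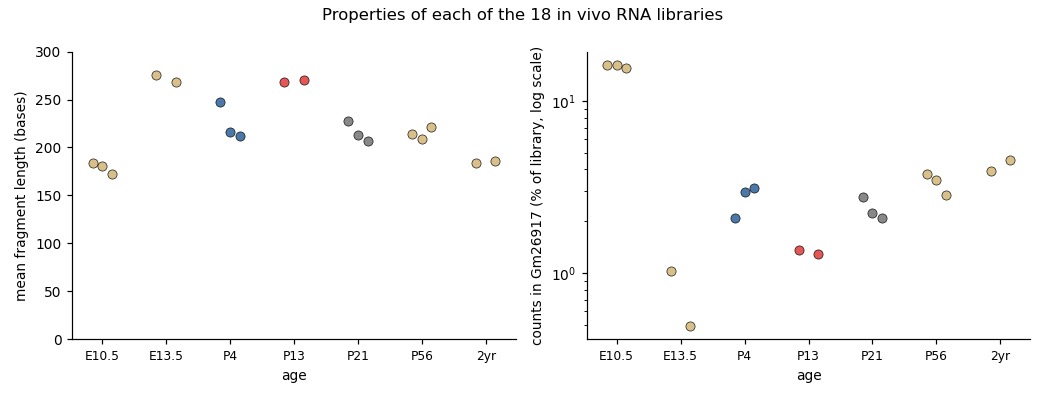
Mean fragment length in bases (left, from 0) and the percent of counts in the noncoding locus Gm26917 (right, log axis) in each of the 18 in vivo RNA libraries, by age. Each point is 1 library. The P13 libraries, at 268 and 271 bases, lie near E13.5 and above the P4 and P21 libraries.

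The motor neuron label was checked on cholinergic genes first. Chat, the acetylcholine synthesis enzyme, held 485, 497 and 452 normalised counts in the P4 libraries and 600.4 and 663 in the P13 libraries, with a log2 fold change of 0.48 ± 0.25 (edgeR adjusted p = 0.15). Slc5a7, the choline transporter, held 1634, 1433 and 1702 at P4 and 1029 and 1122 at P13, and Slc18a3, the vesicular acetylcholine transporter, held 289, 229 and 263 at P4 and 224 and 299.7 at P13. None of the 8 tested genes of cholinergic synthesis and transport was called, and their median log2 fold change was 0.07. Isl1, a LIM homeodomain factor of motor neurons, was lower at P13, with 427, 359.6 and 364 at P4 and 124 and 141 at P13, a log2 fold change of -1.46 ± 0.24 (edgeR adjusted p = 0.00020), while Mnx1, the homeobox factor also named Hb9, was higher, with 13.54, 17.5 and 16.3 at P4 and 46.9 and 47.9 at P13, a log2 fold change of 1.66 ± 0.38 (edgeR adjusted p = 0.0028). In a fit given below, with mean fragment length as a covariate, Mnx1 changed by 2.14 (edgeR adjusted p = 0.075) and lost its call.

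Markers of other cells differed more between the ages. The 26 endothelial markers summed to 11884 to 15887 normalised counts at P4, 873 and 1164 at P13 and 218 to 305 at P21. Pericyte and smooth muscle markers, 17 genes, went from between 4519 and 6367 to 691 and 851, and the 25 markers of dividing cells from between 1704 and 2027 to 301 and 364. Oligodendrocyte lineage markers, 20 genes, moved upward, from between 3095 and 3768 to 14236 and 14251. Astrocyte markers, 15 genes, held 4859 to 6053 at P4 and 3748 and 4538 at P13, and 21 markers of non-cholinergic neurons 1125 to 1872 and 1300 to 1743, which overlapped. Among these lists at most 1 endothelial, 2 pericyte, 1 dividing cell and 1 oligodendrocyte lineage marker, and no astrocyte marker, was at 0 in any P4 or P13 library, against up to 5 of the markers of non-cholinergic neurons. The study's methods say that P4 preparations carried some blood vessel contamination and were less pure than those at P13, and the P4 cords were also dounced fewer times. In bulk libraries, fewer cells of a type and less RNA per cell cannot be told apart.

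**Figure D2:**
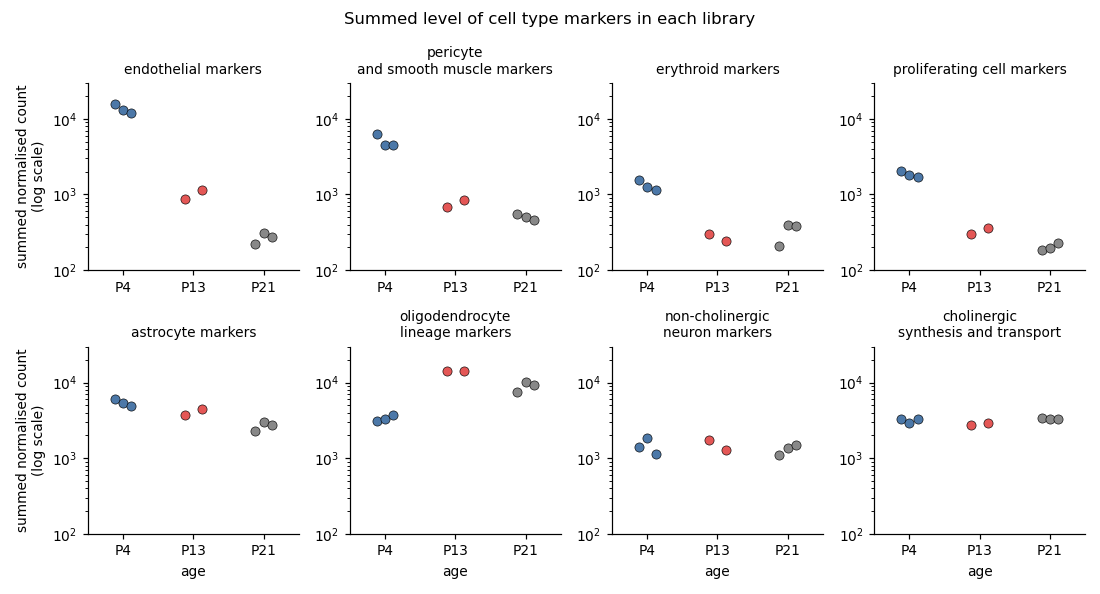
Summed normalised count of the genes of 8 marker lists (log axis) in each library at P4, P13 and P21, with 1 point per library. Endothelial markers stand at 11884 to 15887 at P4 and at 873 and 1164 at P13, oligodendrocyte lineage markers move the other way, and astrocyte markers stand at 4859 to 6053 and 3748 to 4538.

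A gene was called when its unadjusted p in edgeR's quasi-likelihood test was under 0.001 and its level changed at least 2-fold, the limits of the study. Of 15030 genes tested, 872 were called higher at P13 (5.8%) and 1134 lower (7.54%), 13.3% in all. Under the limit of 0.05 on the adjusted p, with 2-fold again required, 1199 were higher (7.98%) and 1623 lower (10.8%), 18.8% in all. All 2006 called genes had P4 and P13 libraries that did not overlap, as did 64.1% of all genes tested. Where a called gene is described below as without overlap, this adds nothing to its call. Protein-coding genes made 662 of the higher and 1046 of the lower genes. Long intergenic noncoding RNAs were 40 of the higher genes and 7 of the lower, from 229 tested, and antisense RNAs 27 and 1, from 128 tested. The median log2 fold change over all genes was 0.05, and the counts of called genes in each list below stand beside these shares of all genes tested. Leaving out P13 replicate 1, the deeper library, took the calls to 640 higher and 647 lower, and leaving out P13 replicate 2 to 645 and 738.

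The later age gave a measure of what was kept. P21 against P4, in the same fit and sharing the P4 libraries, had 880 genes higher (5.85%) and 1681 lower (11.2%), 17% in all. A separate test of P13 against the mean of P4 and P21 on the log2 scale called 638 genes above that mean (4.24%) and 206 below it (1.37%), 5.62% in all, and under the adjusted limit 797 above (5.3%) and 407 below (2.71%), 8.01% in all. With median-of-ratios scaling these were 509 and 265, so that the share above moved from 75.6% to 65.8% of the calls, and DESeq2 called 544 and 356 (60.4% above). By transcript length, the 344 genes under 0.5 kb had a median log2 fold change of -0.45 at P13 and 0.02 at P21, both against P4. Genes of 0.5 to 1 kb, 1088 genes, had a median log2 fold change of 0.27 and -0.35, and the 2414 genes of 4 to 8 kb had -0.09 and -0.08. With the mean fragment length added to the fit as a covariate, an alternative chosen after the data were seen, 343 genes were called higher and 574 lower. Of the 872 higher genes 251, and of the 1134 lower genes 546, were called in that fit, and 872 and 1133 had the same sign. Those signs were near certain to hold, since the same counts had chosen the genes. Fragment length also moved with age, so this fit cannot separate them, and a lost call need not mean a lost change.

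Of the glycine receptor subunits, which carry fast inhibition, 1 was called higher and 1 lower at P13. Glra1, the adult alpha subunit of the glycine receptor, held 309, 329 and 311 normalised counts in the P4 libraries and 713 and 751 in the P13 libraries. Every P13 library lay above every P4 library, and the log2 fold change was 1.29 ± 0.16 (edgeR adjusted p = 1.6e-05), with 709, 824 and 726 at P21. Glra2, the fetal alpha subunit, held 198, 179.8 and 203 normalised counts in the P4 libraries and 44.8 and 34.8 in the P13 libraries, a log2 fold change of -2.18 ± 0.48 (edgeR adjusted p = 0.0019). It was at 15.5, 19.8 and 23.6 at P21. The call of Glra2 was lost without P13 replicate 1 (log2 fold change -2.42, edgeR adjusted p = 0.020) and without P13 replicate 2 (-2.01, edgeR adjusted p = 0.033). With the fragment length covariate both calls were lost, at 1.21 for Glra1 (edgeR adjusted p = 0.022) and -2.09 for Glra2 (edgeR adjusted p = 0.10). In TPM, which corrects for gene length, the ratio of Glra1 to Glra2 was 2.15, 2.54 and 2.11 in the P4 libraries and 22.8 and 31.0 in the P13 libraries. The other subunits were not called: Glra3 had a log2 fold change of 0.17 ± 0.30 (edgeR adjusted p = 0.71), the beta subunit Glrb 0.54 ± 0.22 (edgeR adjusted p = 0.068), and Gphn, the gephyrin scaffold that holds the receptors at synapses, 0.21 ± 0.17 (edgeR adjusted p = 0.36).

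Of 20 tested genes of the glycine and GABA receptor and chloride transporter list, 1 was called higher and 2 lower (median -0.13). The other lower gene was Gabrg3, a gamma subunit of the GABA-A receptor, at 694, 728 and 656 at P4 and 213 and 207 at P13, a log2 fold change of -1.64 ± 0.32 (edgeR adjusted p = 0.00079). Slc12a5, the potassium chloride exporter that makes inhibition hyperpolarising, held 735, 832 and 779 at P4 and 1574 and 1261 at P13, 0.94 ± 0.33 (edgeR adjusted p = 0.034), short of the limits. The P21 libraries, at 1495, 988 and 986, overlapped those of P13.

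Grin3b, the glycine-binding NMDA receptor subunit that is enriched in motor neurons, held 2.26, 4.38 and 5.01 normalised counts in the P4 libraries and 53.7 and 43.2 in the P13 libraries. Both P13 libraries were above all P4 libraries, which rest on few counts, a log2 fold change of 3.71 ± 0.34 (edgeR adjusted p = 7.4e-07), with 145, 155 and 118 at P21. Grin3b was the only one of 25 glutamate receptor genes called in the test against the mean of P4 and P21, at 1.14 ± 0.25 (edgeR adjusted p = 0.0037). Grin2c, another NMDA receptor subunit, held 4.51, 4.38 and 8.77 at P4 and 23.5 and 31.9 at P13 and changed by 2.29 ± 0.43 (edgeR adjusted p = 0.00056). Gria3, an AMPA receptor subunit, held 1419.8, 1290.2 and 1648 at P4 and 2882 and 2849 at P13, a change of 1.06 ± 0.21 (edgeR adjusted p = 0.00081). With the fragment length covariate Gria3 changed by 0.88 (edgeR adjusted p = 0.18) and lost its call. Grik1, a kainate receptor subunit, held 1108, 1347 and 1041 at P4 and 384 and 276 at P13, a change of -1.73 ± 0.35 (edgeR adjusted p = 0.0012). Grin2a and Grin2b, whose exchange marks maturing forebrain synapses, had log2 fold changes of -0.79 ± 0.30 (edgeR adjusted p = 0.048) and -0.49 ± 0.30 (edgeR adjusted p = 0.23), and neither was called. Their TPM ratio was 0.435 to 0.688 at P4 and 0.521 and 0.557 at P13, which overlapped. In all, 3 of the 25 were called higher and 1 lower, with a median of -0.12, a share near the 13.3% called among all genes.

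Open chromatin at 2 of these genes, Grin3b and Glra2, was compared with their RNA, since ATAC-seq peaks, the places where a transposase could cut, were deposited for both ages. The nuclei were sorted by flow cytometry from brachial, thoracic and lumbar cord, so the preparations differ from those of the RNA. Both genes had a peak within 1 kb of the start site in all 4 libraries. At Grin3b the highest fold enrichment over background within 1 kb of the start was 4.06 and 3.50 at P4 and 4.24 and 5.39 at P13, and at Glra2 it was 5.04 and 4.57 at P4 and 5.45 and 5.74 at P13. A peak was thus present where the RNA was near 0, at Grin3b, and where it fell, at Glra2. The 250 bases upstream of both starts are shown because the peaks cover them in part while the RNA levels moved in opposite directions. They are RefSeq sequences of build GRCm38.p6, 5′ to 3′ along the gene, at chr10:79970474-79970723, plus strand, and chrX:165327394-165327643, minus strand, with capitals for matches on either strand to TATAAA or TGANTCA.
Grin3b: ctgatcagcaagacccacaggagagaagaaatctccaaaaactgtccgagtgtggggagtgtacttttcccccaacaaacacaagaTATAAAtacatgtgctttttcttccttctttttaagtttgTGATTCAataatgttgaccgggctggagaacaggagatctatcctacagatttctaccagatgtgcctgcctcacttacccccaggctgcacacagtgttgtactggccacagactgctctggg
Glra2: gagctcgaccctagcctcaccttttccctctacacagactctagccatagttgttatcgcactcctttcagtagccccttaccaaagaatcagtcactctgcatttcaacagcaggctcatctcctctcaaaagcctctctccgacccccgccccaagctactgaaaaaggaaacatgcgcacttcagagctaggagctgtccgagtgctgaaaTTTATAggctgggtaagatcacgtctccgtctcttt
TATAAA, the TATA box, was found in 12.4% of 32851 RefSeq windows of the same length, TGANTCA, the AP-1 motif, in 6.75%, and CACGTG, an E-box with no match in these 2 windows, in 6.02%. The motifs do not overlap each other here. A match describes the letters only.

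**Figure D3:**
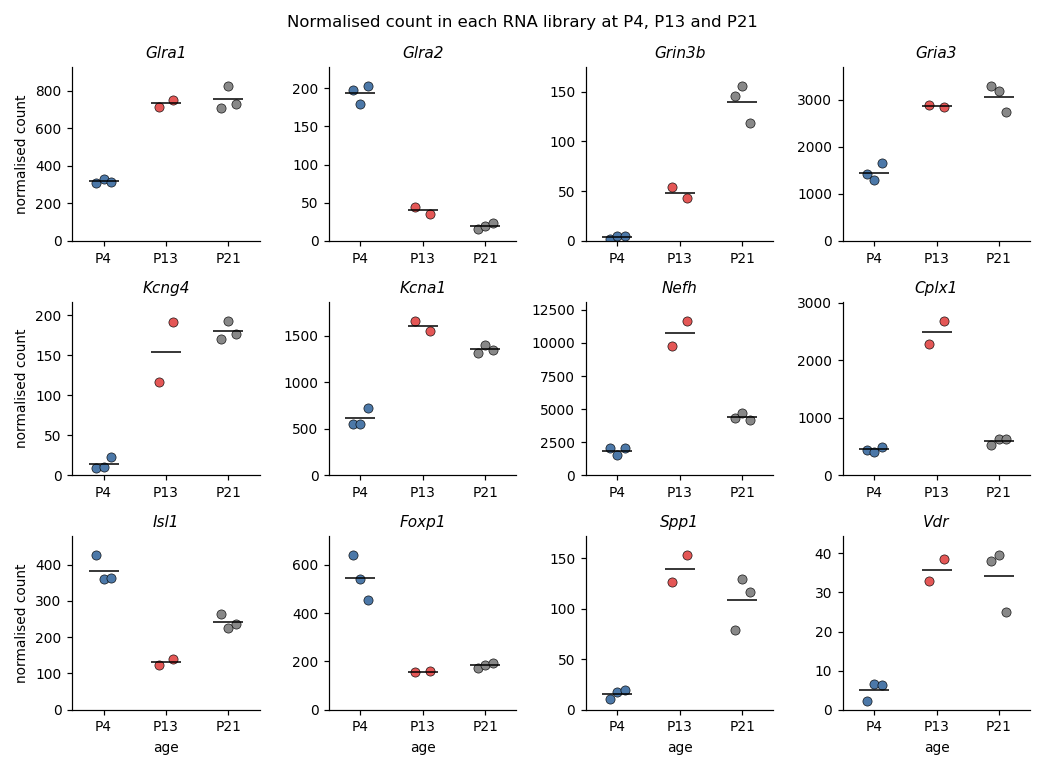
Normalised counts (y axis from 0) of 12 genes in each library at P4 (3), P13 (2) and P21 (3). Points are libraries and bars are group means. Glra1 stands at 713 and 751 at P13 and at 709 to 824 at P21, Glra2 falls to 44.8 and 34.8 at P13, and the P13 points of Nefh and Cplx1 lie above all others.

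Potassium channel genes had more calls upward than downward. Of 59 tested potassium channel genes, 11 were called higher and 5 lower, with a median of 0.10 and 15 and 6 called at P21 against P4. Kcng4, a modifier subunit of Kv2 channels and a marker of fast alpha motor neurons, held 9.03, 9.87 and 22.5 normalised counts in the P4 libraries and 117 and 192 in the P13 libraries. The lowest P13 library was above all P4 libraries, the log2 fold change was 3.56 ± 0.32 (edgeR adjusted p = 9.0e-07), and P21 stood at 171, 194 and 176. Kcnj14, an inward rectifier, held 16.9, 12.1 and 32.6 at P4 and 77.9 and 102 at P13 (log2 fold change 2.22 ± 0.35, edgeR adjusted p = 0.00014). Kcns3, a silent Kv2 partner, held 14.7, 35.1 and 20.04 at P4 and 87.04 and 105 at P13 (log2 fold change 2.11 ± 0.40, edgeR adjusted p = 0.00084). Kcnj9, a G-protein-gated rectifier, held 25.96, 44.9 and 37.6 at P4 and 152 and 139 at P13 (log2 fold change 2.09 ± 0.24, edgeR adjusted p = 7.6e-06). Kcna1 and Kcna2, the Kv1 subunits beside the nodes of myelinated axons, held 555, 554 and 726 at P4 and 1667 and 1549 at P13, and 499, 552 and 763 at P4 and 1796 and 1933 at P13. All these channels had P13 libraries above every P4 library. The log2 fold changes of the Kv1 genes were 1.47 ± 0.19 (edgeR adjusted p = 1.7e-05) and 1.703 ± 0.30 (edgeR adjusted p = 0.00034), and their cytosolic beta subunit Kcnab2 changed by 1.297 ± 0.21 (edgeR adjusted p = 0.00017).

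Kcnd2, a subunit of the A-type current, was lower, at 485, 563 and 499.6 at P4 and 186 and 163 at P13, a log2 fold change of -1.48 ± 0.36 (edgeR adjusted p = 0.0041). Of the other lower genes, Kcnj8, the potassium channel of pericytes, held 104, 88.8 and 72.6 at P4 and 11.5 and 4.697 at P13, and Kcnq1, an epithelial and cardiac channel, 28.2, 40.6 and 45.1 at P4 and 1.04 and 1.88 at P13, and the endothelial and pericyte sums fell over the same ages. The part of vessel nuclei in these 2 changes was not tested. Kcnk13 and Kcnd1 were the remaining lower genes.

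Among 9 tested sodium channel genes 2 were called higher and none lower (median 0.46). Under the limit of 0.05 on the adjusted p with 2-fold, 2 were higher and 3 lower, the lowest at a log2 fold change of -1.45. At P21 against P4, 1 was called higher and 2 lower. Scn4b, a beta subunit that supports fast repetitive firing, held 91.4, 76.7 and 116 normalised counts in the P4 libraries and 334 and 292 in the P13 libraries, a log2 fold change of 1.81 ± 0.21 (edgeR adjusted p = 6.3e-06). Both P13 libraries lay above all P4 libraries. The pore-forming Scn1a and Scn8a had log2 fold changes of 0.48 ± 0.26 (edgeR adjusted p = 0.17) and 0.46 ± 0.17 (edgeR adjusted p = 0.048), under 2-fold. Of 22 genes of the axon initial segment and node, 4 were called higher and none lower (median 0.36), among them the Kv1 genes Kcna1, Kcna2 and Kcnab2. Calcium and HCN channel genes, 25 in all, had 1 call in each direction. Cacna2d3, a calcium channel accessory subunit, held 555, 658 and 571 at P4 and 1805 and 1693 at P13 (log2 fold change 1.64 ± 0.29, edgeR adjusted p = 0.00040). Cacng4, an accessory subunit of AMPA receptors, held 169, 173 and 162 at P4 and 77.1 and 73.3 at P13 (log2 fold change -1.08 ± 0.27, edgeR adjusted p = 0.0056). The median was -0.24, and 0.14 at P21 against P4.

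Release genes that rose included fast synaptic isoforms. Of 35 tested genes of the vesicle and release machinery, 4 were called higher and none lower, with a median of 0.32 at P13 and 0.09 at P21. Vamp1, the vesicle SNARE of the neuromuscular junction, held 377, 378 and 387 normalised counts in the P4 libraries and 908 and 1059 in the P13 libraries (log2 fold change 1.45 ± 0.17, edgeR adjusted p = 7.4e-06). Syt2, a fast calcium sensor, held 720.1, 646 and 799 at P4 and 1538 and 1459 at P13 (log2 fold change 1.13 ± 0.23, edgeR adjusted p = 0.0010). Their forebrain counterparts Vamp2 and Syt1 had log2 fold changes of 0.16 ± 0.28 (edgeR adjusted p = 0.69) and -0.07 ± 0.35 (edgeR adjusted p = 0.90). In TPM, Vamp1 stood at 0.531 to 0.984 times Vamp2 at P4 and at 1.31 and 1.32 times at P13, and Syt2 at 0.551 to 1.14 times Syt1 at P4 and at 1.56 and 1.97 times at P13. Cplx1, a complexin that clamps and then speeds fusion, had a level at P13 that was not kept: 448, 408 and 489.6 at P4 and 2291 and 2691 at P13, and 526, 626 and 622 at P21, with P13 above the mean of P4 and P21 by 2.35 ± 0.27 (edgeR adjusted p = 1.7e-05).

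The larger neurofilament subunits, which build the polymers that set axon calibre, were higher at P13 than at P4. Nefh, the heavy subunit, held 2038, 1497 and 2031 normalised counts in the P4 libraries and 9735 and 11699 in the P13 libraries, a log2 fold change of 2.61 ± 0.32 (edgeR adjusted p = 1.1e-05), and Nefm, the medium subunit, 7678, 5757 and 7099 at P4 and 27249 and 28513 at P13, a change of 2.104 ± 0.38 (edgeR adjusted p = 0.00044). At P21 they stood at 4334, 4698 and 4177, and at 10209, 11103 and 9888, and both were called above the mean of P4 and P21, by 1.98 and 1.803 on the log2 scale. Nefl, the light subunit, held 3315, 2406 and 3296 at P4 and 5767 and 7878 at P13, 1.26 ± 0.47 (edgeR adjusted p = 0.048), short of the limits. The TPM ratio of Nefh to Nefl was 0.514 to 0.521 at P4 and 1.41 and 1.24 at P13. Ina and Prph, which are made early in neurons, had log2 fold changes of -0.42 and 0.73 and were not called. The neurofilament median was 1.26 at P13 and 0.21 at P21, both against P4.

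Some genes of growing axons were lower. Of 31 growth cone and immature cytoskeleton genes, 5 were called lower and 1 higher (median -0.29), and at P21 14 were lower than at P4 and none higher (median -0.80). Marcks, an actin-linked kinase substrate, held 730.2, 700.5 and 631 normalised counts in the P4 libraries and 138 and 159 in the P13 libraries, a log2 fold change of -2.14 ± 0.19 (edgeR adjusted p = 6.8e-07). Dcx, a microtubule protein of migrating and growing neurons, held 1394, 1313 and 1168 at P4 and 382 and 281 at P13 (log2 fold change -1.88 ± 0.35, edgeR adjusted p = 0.00059). Sox4, a factor of young neurons, held 286, 238 and 220.4 at P4 and 51.1 and 56.4 at P13 (log2 fold change -2.13 ± 0.27, edgeR adjusted p = 1.3e-05), and Tmsb10 and Marcksl1 changed by -1.13 and -1.08. Gap43, the growth cone protein, held 321, 363 and 341 at P4 and 120.4 and 147 at P13 and did not pass the limits at P13 (log2 fold change -1.28 ± 0.48, edgeR adjusted p = 0.048), with 31.01, 53.7 and 51.4 at P21. Klc1, a kinesin light chain for axonal transport, was the gene called higher (log2 fold change 1.07 ± 0.25, edgeR adjusted p = 0.0030). Sums of endothelial and dividing cell markers also fell between P4 and P13, and the part of those nuclei in the lower genes was not tested.

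Axon guidance genes had 10 of 49 called lower and none higher, with 46 of the 49 fold changes negative and a median of -0.75. The list holds receptors of vessels beside those of neurons. Plxnd1, a semaphorin receptor of endothelium, held 896, 771 and 701 at P4 and 53.2 and 53.5 at P13 (log2 fold change -3.804 ± 0.33, edgeR adjusted p = 4.2e-07). Unc5b, a netrin receptor also of endothelium, held 219, 159 and 149 at P4 and 28.7 and 25.4 at P13 (log2 fold change -2.604 ± 0.31, edgeR adjusted p = 8.2e-06). Efna1, an ephrin, held 47.4, 36.2 and 20.04 at P4 and 4.17 and 9.39 at P13 (log2 fold change -2.37 ± 0.50, edgeR adjusted p = 0.0014). The fall of these moved with the endothelial sum, and the part of vessel nuclei was not tested. Among genes known in neurons, Robo2, a Slit receptor, held 1319, 1493 and 1460.1 at P4 and 518 and 403 at P13 (log2 fold change -1.54 ± 0.25, edgeR adjusted p = 0.00015). Sema6d held 1897, 1724 and 1554 at P4 and 453 and 503 at P13 (log2 fold change -1.77 ± 0.22, edgeR adjusted p = 1.3e-05). Slit2, a ligand that motor neurons make, held 6446, 5655 and 6682 at P4 and 2553 and 2880.2 at P13 (log2 fold change -1.13 ± 0.25, edgeR adjusted p = 0.0024). At P21 they stood at 471, 474 and 438, at 483, 515 and 524, and at 3003, 3458 and 3175. Ntn1, the netrin ligand, and Plxnb1, a semaphorin receptor, changed by -2.38 and -1.97.

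Of 17 tested perineuronal net genes, 3 were called lower and 1 higher. Tnc and Vcan, matrix proteins of the young nervous system, held 286, 240.1 and 215 at P4 and 23.5 and 48.8 at P13, and 1354, 1241 and 1142 at P4 and 256 and 260.2 at P13, log2 fold changes of -2.74 ± 0.41 (edgeR adjusted p = 7.5e-05) and -2.19 ± 0.25 (edgeR adjusted p = 6.2e-06), and Chst11, a chondroitin sulphotransferase, changed by -1.26 ± 0.27 (edgeR adjusted p = 0.0016). Hapln4, a link protein of perineuronal nets and nodes, held 99.3, 81.1 and 138 at P4 and 208 and 197 at P13 (log2 fold change 1.02 ± 0.23, edgeR adjusted p = 0.0023). The adult lecticans Acan and Bcan were not called at P13 (0.77 and 0.45), and P21 was higher than P4 by 1.14 ± 0.27 (edgeR adjusted p = 0.0025) and 1.19 ± 0.27 (edgeR adjusted p = 0.0023). Tnc and Vcan are also made by glia and vessel cells, and the sums of vessel markers fell, and that part was not tested.

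**Figure D4:**
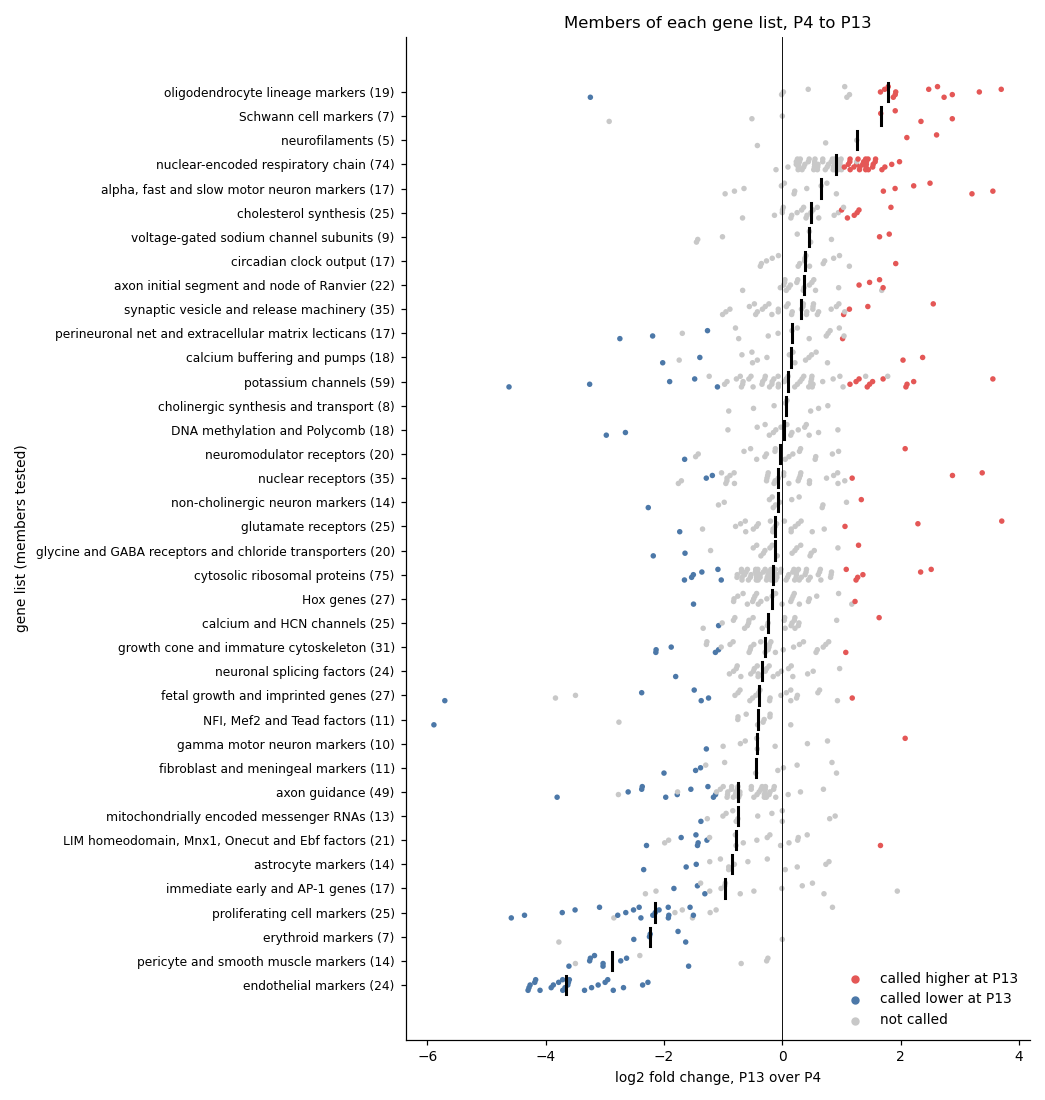
Log2 fold change, P13 over P4, of every tested member of 38 gene lists, with the number tested in brackets. Each dot is a gene, red where called higher, blue where called lower and grey where not called, and black bars are list medians. All 24 endothelial genes are blue, and 27 of 74 respiratory chain genes and 12 of 19 oligodendrocyte lineage genes are red.

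Several alpha motor neuron markers rose. Of 17 tested alpha, fast and slow markers, 6 were called higher and none lower, with a median of 0.66 and of 0.21 at P21. Beside Kcng4 and Kcnj14, already given, they were Spp1, Vipr2, Stk32a and Prkcd. Spp1, osteopontin, held 10.2, 17.5 and 19.6 normalised counts in the P4 libraries and 126 and 153 in the P13 libraries, with every P13 library above every P4 library, and changed by 3.205 ± 0.33 (edgeR adjusted p = 2.2e-06). Vipr2, a receptor for vasoactive intestinal peptide, held 48.5, 36.2 and 50.1 at P4 and 189 and 295 at P13 (log2 fold change 2.496 ± 0.29, edgeR adjusted p = 7.8e-06). Stk32a, a kinase, held 108, 85.5 and 155 at P4 and 365 and 461 at P13 (log2 fold change 1.91 ± 0.27, edgeR adjusted p = 4.3e-05). Prkcd, protein kinase C delta, held 53.05, 61.4 and 36.3 at P4 and 163 and 149 at P13 (log2 fold change 1.71 ± 0.23, edgeR adjusted p = 3.2e-05). At P21 the 4 stood at 78.9, 129 and 117, at 310.1, 331 and 190.3, at 533, 551 and 513, and at 282, 257 and 276. Of 10 gamma markers, Htr1d, a serotonin receptor, was called higher, at 11.3, 9.87 and 18.8 at P4 and 53.2 and 52.6 at P13 (log2 fold change 2.08 ± 0.40, edgeR adjusted p = 0.00074), and Pard3b, a polarity protein, lower, at 182, 187 and 162 at P4 and 79.2 and 56.4 at P13 (log2 fold change -1.28 ± 0.29, edgeR adjusted p = 0.0028).

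At the start of Spp1 a peak was called at P13 only. The P4 libraries held fewer peaks in all, 115517 and 96168 against 133513 and 171219 at P13, so a missing call need not be a closed site. No peak lay within 1 kb of it in either P4 library, and peaks with a fold enrichment of 4.09 and 2.98 lay there in the P13 libraries, from 104435078 to 104435475 and from 104434992 to 104435481 on chromosome 5 of mm10. The sequence of the 250 bases upstream is shown because the peaks begin within it. It lies at chr5:104434861-104435110, plus strand, from RefSeq GRCm38.p6, with capitals for the single motif match, TATAAA.
Spp1: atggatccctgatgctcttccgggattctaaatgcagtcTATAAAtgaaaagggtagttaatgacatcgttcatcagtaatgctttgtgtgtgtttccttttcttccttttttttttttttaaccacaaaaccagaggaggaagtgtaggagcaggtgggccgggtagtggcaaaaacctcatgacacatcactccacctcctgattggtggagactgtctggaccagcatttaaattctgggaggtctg
Spp1 was 1 of 15 higher genes, of 869 with a start site on the compared chromosomes, that had such a peak in both P13 and neither P4 library (1.73%). The same held for 19 of 1133 lower genes (1.68%) and 155 of 13003 genes not called (1.19%).

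Several transcription factors that pattern motor neurons were lower at P13. The list of LIM homeodomain, Mnx1, Onecut and Ebf factors also holds Foxp1 and Etv4, which belong to other families. Of its 21 tested genes, 6 were called lower and 1 higher (median -0.78, and -0.83 at P21). Isl1 and Mnx1 were given above. Foxp1, the factor of limb-innervating motor columns, held 641, 539.9 and 455 normalised counts in the P4 libraries and 155 and 162 in the P13 libraries (log2 fold change -1.71 ± 0.32, edgeR adjusted p = 0.00057), and P21 stood at 174, 187 and 192. Ebf1 and Ebf4 changed by -1.27 and -1.43, Onecut1 by -1.42, and Etv4, a factor of motor pools, by -2.29 from 18.1, 16.4 and 28.8 at P4 and 4.69 and 2.82 at P13. The endothelial and pericyte sums fell over the same ages, and the part of vessel nuclei in these lower levels was not tested. Isl1 was lower at P13 than at P4 or P21, where it stood at 265, 225 and 236. P13 was called below the mean of P4 and P21 for Isl1 (-1.13 ± 0.22, edgeR adjusted p = 0.0016) and for Ebf4 (-1.13 ± 0.23, edgeR adjusted p = 0.0019). Mnx1, at 28.2, 19.8 and 19.4 at P21, was called above that mean (1.41 ± 0.32, edgeR adjusted p = 0.0043). Hox genes, which set segment identity, had 1 call in each direction among 27, Hoxa7 higher (log2 fold change 1.23 ± 0.21, edgeR adjusted p = 0.00031) and Hoxb3 lower (log2 fold change -1.500 ± 0.31, edgeR adjusted p = 0.0012), and at P21 neither was called against P4 (0.15 and -0.11).

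Of 35 tested nuclear receptors 3 were called higher and 2 lower (median -0.07), a share near the 13.3% called among all genes. Vdr, the vitamin D receptor, held 2.26, 6.58 and 6.26 normalised counts in the P4 libraries and 32.8 and 38.5 in the P13 libraries (log2 fold change 2.88 ± 0.46, edgeR adjusted p = 0.00014), the lowest P4 library resting on 2 counts, with 38.1, 39.6 and 25.002 at P21. Nr5a2, an orphan receptor, held 4.51, 1.096 and 1.25 at P4 and 30.8 and 15.03 at P13, 2 of its P4 values resting on 1 count, and no fold is given. Thrb, the beta thyroid hormone receptor, held 86.9, 102 and 149 at P4 and 239.8 and 242 at P13 (log2 fold change 1.18 ± 0.25, edgeR adjusted p = 0.0014) and 282, 246 and 306 at P21. Nr4a1, an activity-induced receptor, and Ppard, a fatty acid sensor, were lower. Nr4a1 held 47.4, 62.5 and 55.1 at P4 and 23.98 and 17.8 at P13 (log2 fold change -1.28 ± 0.30, edgeR adjusted p = 0.0029) and 57.8, 76.3 and 47.2 at P21. Ppard held 244, 192 and 189 at P4 and 91.2 and 81.7 at P13 (log2 fold change -1.18 ± 0.27, edgeR adjusted p = 0.0026) and 251, 174 and 138 at P21, so both overlapped their P4 levels again at P21. Among NFI, Mef2 and Tead factors only Tead2 of 11 was called, a factor of dividing progenitors, at 57.6, 53.7 and 35.1 at P4 and 0 and 1.88 at P13. The list median was -0.42 with 10 of 11 fold changes negative.

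Immediate early genes, which answer neuronal activity or the handling of tissue, had 3 of 17 called lower and none higher (median -0.97), and at P21 5 were lower than at P4 and 1 higher (median -1.35). Egr1 held 158, 80.02 and 77.6 at P4 and 29.2 and 26.3 at P13 (log2 fold change -1.83 ± 0.40, edgeR adjusted p = 0.0020). Jund held 152, 127 and 143 at P4 and 47.95 and 50.7 at P13 (log2 fold change -1.43 ± 0.33, edgeR adjusted p = 0.0029). Ier2 held 45.1, 26.3 and 33.8 at P4 and 11.5 and 15.97 at P13 (log2 fold change -1.31 ± 0.32, edgeR adjusted p = 0.0047), while Fos held 14.7, 8.77 and 27.5 at P4 and 21.9 and 23.5 at P13 and was not called. Dbp, a clock output factor, was the 1 called gene of 17 clock genes, at 13.54, 9.87 and 7.51 at P4 and 44.3 and 29.1 at P13 (log2 fold change 1.92 ± 0.45, edgeR adjusted p = 0.0035). Of 20 neuromodulator receptors Htr1d was higher and Chrm3, a muscarinic receptor, lower. Among 24 splicing factors 1 was called, Ptbp3, an RNA-binding repressor, lower at 254, 267 and 255 at P4 and 77.1 and 62.000 at P13 (log2 fold change -1.801 ± 0.21, edgeR adjusted p = 7.6e-06). Calcium handling genes, 18 tested, had 2 calls in each direction, and at P21 2 were higher and 6 lower than at P4. Calb2, calretinin, held 21.4, 40.6 and 35.1 at P4 and 143 and 176 at P13 (log2 fold change 2.37 ± 0.27, edgeR adjusted p = 4.9e-06). S100b held 73.4, 57.002 and 155 at P4 and 335 and 404 at P13 (log2 fold change 2.04 ± 0.29, edgeR adjusted p = 5.0e-05). Oligodendrocyte lineage markers rose in the same step, and the part of glial RNA in the S100b level was not tested. Atp2a3, a reticulum calcium pump, and Ryr1, a calcium release channel, changed by -2.02 and -1.39.

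Several fetal growth genes were lower. Igf2, the fetal growth factor, held 1182, 761 and 629.9 normalised counts in the P4 libraries and 14.9 and 15.97 in the P13 libraries, a log2 fold change of -5.702 ± 0.39 (edgeR adjusted p = 1.2e-07), with 2.82, 7.07 and 4.17 at P21. Of 27 tested fetal growth and imprinted genes 5 were called lower and 1 higher (median -0.40). Magel2 held 132, 118 and 82.6 at P4 and 17.7 and 23.5 at P13 (log2 fold change -2.38 ± 0.42, edgeR adjusted p = 0.00036). Nnat, neuronatin, held 191, 195 and 169 at P4 and 52.1 and 86.4 at P13 (log2 fold change -1.37 ± 0.30, edgeR adjusted p = 0.0022). Igf2bp3, an RNA-binding protein of embryos, held 31.6, 50.4 and 47.6 at P4 and 14.1 and 15.03 at P13 (log2 fold change -1.49 ± 0.38, edgeR adjusted p = 0.0057). Igf2r, which clears Igf2, held 462, 522 and 438 at P4 and 208 and 168 at P13 (log2 fold change -1.25 ± 0.19, edgeR adjusted p = 0.00011). Meg3, a maternally expressed noncoding RNA and one of the most abundant transcripts of these nuclei, was higher, at 152520, 154370 and 145720 at P4 and 340310 and 307370 at P13 (log2 fold change 1.18 ± 0.23, edgeR adjusted p = 0.00095). Igf2 is made by vessel and meningeal cells too, whose markers fell, and their part was not tested. Dnmt3b, a fetal DNA methyltransferase, and Uhrf1 were the 2 lower genes of 18 in DNA methylation and Polycomb (-2.97 and -2.65). Dnmt3b held 53.05, 21.9 and 26.3 at P4 and 4.69 and 2.82 at P13. Uhrf1 held 41.8, 49.3 and 18.8 at P4 and 3.65 and 8.45 at P13, so both folds rest on few counts at P13. Markers of dividing cells fell in the same step, and their part in these levels was not tested. Dnmt3a, the postnatal enzyme, held 1393, 1423 and 1201 at P4 and 1532 and 1262 at P13 and was not called.

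Some nuclear genes of oxidative phosphorylation rose at P13. Of 74 tested nuclear-encoded respiratory chain genes, 27 were called higher and none lower, 73 fold changes were positive and the median was 0.90. At P21 none was called higher than at P4 and 5 were called lower, with a median of -0.41, and 46 of the 74 were called above the mean of P4 and P21. Cox7b, a cytochrome oxidase subunit, held 116, 124 and 129 normalised counts in the P4 libraries and 357 and 393 in the P13 libraries (log2 fold change 1.68 ± 0.20, edgeR adjusted p = 8.4e-06) and 81.7, 90.5 and 126 at P21. Ndufc1 and Ndufc2, subunits of complex I, held 29.3, 24.1 and 40.1 at P4 and 113 and 119 at P13, and 60.9, 43.8 and 53.8 at P4 and 141 and 159 at P13, and at P21 53.6, 40.99 and 30.6, and 14.1, 28.3 and 23.6. Ndufa1 and Atp5k changed by 1.85 ± 0.39 (edgeR adjusted p = 0.0016) and 1.73 ± 0.28 (edgeR adjusted p = 0.00018). P13 shares its long fragments with E13.5, so age and library property cannot be told apart for this group. The 13 mitochondrially encoded messages had a median of -0.75, 1 call, mt-Co1 lower (log2 fold change -1.37 ± 0.29, edgeR adjusted p = 0.0014), and no member called above the mean of P4 and P21.

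Ribosomal protein genes had calls in both directions. Of 75 tested, 6 were called higher and 6 lower at P13 (median -0.16), 62 were lower at P21 than at P4 (median -1.61), and 23 were called above the mean of P4 and P21 and none below it. Rps3, whose introns encode small nucleolar RNAs, held 2559, 5494 and 7322 at P4 and 29412 and 26030 at P13 (log2 fold change 2.52 ± 0.32, edgeR adjusted p = 1.5e-05), with 3459, 4641 and 6507 at P21. Rpl5, another host, held 518, 1399 and 1983 at P4 and 6461 and 5967 at P13, while Rps15 and Rps4x were lower, at 154, 158 and 157 at P4 and 47.4 and 46.03 at P13, and at 346, 225 and 236 at P4 and 87.3 and 89.2 at P13. P4 replicate 1 was the lowest P4 library for both hosts.

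Cholesterol synthesis genes, which myelin and growing membrane draw on, had 6 of 25 called higher and none lower, 22 positive fold changes and a median of 0.48. Idi1, an isomerase of the isoprenoid step, held 134, 97.7 and 133 normalised counts in the P4 libraries and 398 and 423 in the P13 libraries (log2 fold change 1.84 ± 0.25, edgeR adjusted p = 3.3e-05). Msmo1 held 178, 223 and 272 at P4 and 504 and 480.0 at P13 (log2 fold change 1.22 ± 0.22, edgeR adjusted p = 0.00037). Nsdhl held 63.2, 32.9 and 35.1 at P4 and 83.4 and 118 at P13 (log2 fold change 1.26 ± 0.27, edgeR adjusted p = 0.0019). Hsd17b7, Pmvk and Fdft1 changed by 1.296, 1.101 and 1.002. At P21 1 gene of the list was higher than at P4, Nsdhl, and 1 lower, Stard4, and the median was 0.21. Oligodendrocyte markers rose in the same step, and their part in these levels was not tested.

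**Figure D5:**
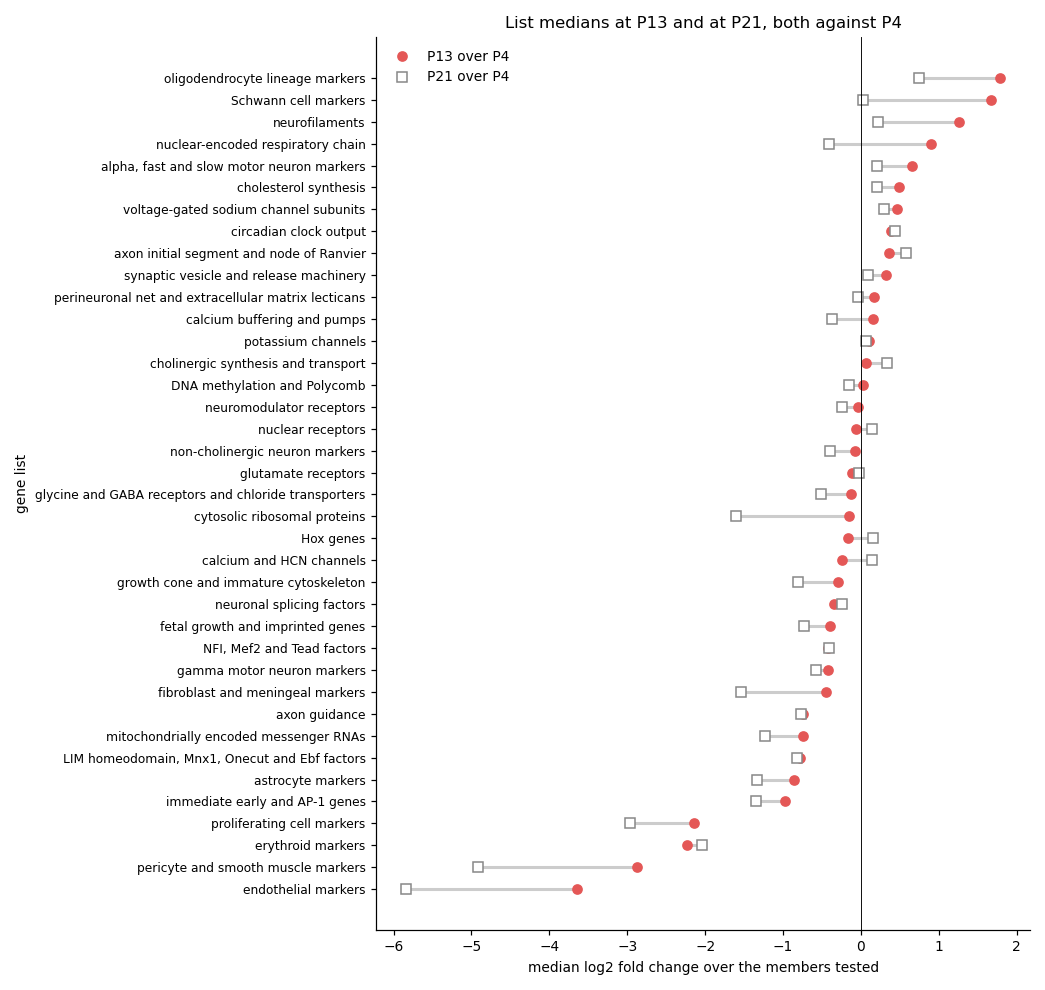
Median log2 fold change over the tested members of 38 gene lists at P13 over P4 (filled circles) and at P21 over P4 (open squares), which share the P4 libraries. The respiratory chain median is 0.90 at P13 and -0.41 at P21, while endothelial markers lie at -3.65 and -5.84.

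Vessel and blood cell genes were lower. All 24 tested endothelial markers were called lower, with log2 fold changes from -4.30 to -2.27 and a median of -3.65, and at P21 the median against P4 was -5.84. Cldn5, a tight junction protein of the blood-brain barrier, held 766, 689.5 and 612 normalised counts in the P4 libraries and 33.4 and 44.2 in the P13 libraries (log2 fold change -4.09 ± 0.29, edgeR adjusted p = 1.2e-07) and 5.64, 1.41 and 5.56 at P21. Flt1, a VEGF receptor, held 2339, 1752 and 1659 at P4 and 77.1 and 109.9 at P13 (log2 fold change -4.295 ± 0.38, edgeR adjusted p = 5.4e-07). Mfsd2a, a barrier lipid transporter, held 510.1, 394 and 418 at P4 and 17.7 and 26.3 at P13 (log2 fold change -4.28 ± 0.32, edgeR adjusted p = 1.3e-07). Vwf, Erg and Slco1c1 changed by -4.26, -4.18 and -4.17. Of 14 tested pericyte and smooth muscle markers 9 were lower, with a median of -2.88. Rgs5, a G-protein regulator of pericytes, held 3477, 2319.5 and 2115 at P4 and 179.8 and 233 at P13 (log2 fold change -3.604 ± 0.30, edgeR adjusted p = 3.9e-07). Pdgfrb, their growth factor receptor, held 491, 329.9 and 353 at P4 and 33.9 and 49.8 at P13 (log2 fold change -3.17 ± 0.35, edgeR adjusted p = 4.2e-06). Haemoglobin genes fell too: Hbb-bs held 449, 376 and 318 at P4 and 69.9 and 55.2 at P13 (log2 fold change -2.51 ± 0.31, edgeR adjusted p = 2.5e-05). Hba-a2 held 732, 566 and 527 at P4 and 130.4 and 114 at P13 (log2 fold change -2.23 ± 0.28, edgeR adjusted p = 2.6e-05), and 5 of 7 erythroid markers were lower. Near-identical globin copies can share reads, so single copies are uncertain.

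A start-site peak was lost at Ephb4, where the RNA was lower as well. Ephb4, an ephrin receptor of veins picked after its values were seen, held 137, 116 and 109 at P4 and 8.86 and 12.2 at P13 (log2 fold change -3.47 ± 0.41, edgeR adjusted p = 8.2e-06). Peaks of 2.34 and 2.74 fold enrichment lay at its start in the P4 libraries and none in the P13 libraries. Its 250 bases upstream, at chr5:137349859-137350108, plus strand of GRCm38.p6 by RefSeq, are given because both P4 peaks reach into them, and they hold none of the 3 motifs.
Ephb4: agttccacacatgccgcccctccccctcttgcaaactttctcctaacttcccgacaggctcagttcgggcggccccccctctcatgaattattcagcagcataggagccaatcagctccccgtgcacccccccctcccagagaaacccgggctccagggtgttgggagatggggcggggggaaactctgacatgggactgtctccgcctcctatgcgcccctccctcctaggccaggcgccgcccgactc
A start-site peak in both P4 and neither P13 library was found at 18 of 1133 lower genes (1.59%), 3 of 869 higher genes (0.345%) and 42 of 13003 genes not called (0.323%). Among the 18 were Notch3, a receptor of smooth muscle and pericytes, Axl, Nid1, a basement membrane protein, and S1pr3.

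Markers of dividing cells fell, 18 of 25 called lower and none higher (median -2.15), and at P21 20 were lower than at P4 (median -2.96). Mki67, the proliferation antigen, held 707, 637 and 579.8 normalised counts in the P4 libraries and 42.7 and 66.7 in the P13 libraries (log2 fold change -3.501 ± 0.46, edgeR adjusted p = 2.2e-05). Top2a, a topoisomerase of dividing cells, held 172, 167 and 150.3 at P4 and 18.8 and 16.9 at P13 (log2 fold change -3.09 ± 0.36, edgeR adjusted p = 7.2e-06). Cdk1 held 53.05, 21.9 and 18.8 at P4 and 1.04 and 1.88 at P13, Ube2c 16.9, 24.1 and 17.5 at P4 and 0.521 and 0.939 at P13 and Aurkb 11.3, 13.2 and 7.51 at P4 and 0.521 and 0.939 at P13, where the P13 values rest on 1 or 2 counts and no fold is given. Astrocyte markers had 3 of 14 lower, and 9 at P21. They were S1pr1, which endothelium also makes (log2 fold change -2.34 ± 0.31, edgeR adjusted p = 2.5e-05), Slc1a3, a glutamate transporter (log2 fold change -1.62 ± 0.30, edgeR adjusted p = 0.00057), and Sox9 (log2 fold change -1.45 ± 0.23, edgeR adjusted p = 0.00011), while Aqp4, an astrocyte water channel, held 947, 938 and 749 at P4 and 374 and 518 at P13 and was not called. Microglia markers were low, with 2 of 14 tested and neither called, and their sum was 125 to 138 at P4 and 126 and 137 at P13. Of 11 tested fibroblast and meningeal markers 3 were lower.

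Most oligodendrocyte lineage markers rose. Of 19 tested oligodendrocyte lineage markers 12 were called higher, and 1, Cspg4, which pericytes share, lower (median 1.79). Ermn, a myelin cytoskeletal protein, held 32.7, 9.87 and 22.5 at P4 and 274 and 260.2 at P13 (log2 fold change 3.699 ± 0.38, edgeR adjusted p = 2.0e-06). Mal held 93.7, 77.8 and 80.1 at P4 and 871 and 723 at P13 (log2 fold change 3.33 ± 0.27, edgeR adjusted p = 3.3e-07). Cldn11, a myelin tight junction protein, held 19.2, 29.6 and 43.8 at P4 and 176 and 212 at P13 (log2 fold change 2.73 ± 0.31, edgeR adjusted p = 6.0e-06). Mog held 18.1, 13.2 and 17.5 at P4 and 101 and 88.3 at P13 (log2 fold change 2.62 ± 0.37, edgeR adjusted p = 0.00010). Mbp, myelin basic protein, held 716, 791 and 928 at P4 and 2469 and 2852 at P13 (log2 fold change 1.79 ± 0.25, edgeR adjusted p = 3.9e-05). At P21 Mbp stood at 1146, 1614 and 1393, under both P13 libraries, and 13 of the 19 were called above the mean of P4 and P21. The 8 Schwann cell markers share members such as Sox10 with this list, and 4 of 7 tested were higher, Erbb3, Sox10 and Pmp22 among them. Whether oligodendrocyte nuclei or RNA from them entered the P13 pull-down was not tested. Of 14 tested markers of other neurons, Slc6a5, the glycine transporter of inhibitory neurons, was higher, at 131, 124 and 72.6 at P4 and 304 and 216 at P13 (log2 fold change 1.34 ± 0.32, edgeR adjusted p = 0.0042), and Ddc, an amine synthesis enzyme, lower, at 33.9, 28.5 and 38.8 at P4 and 5.21 and 8.45 at P13 (log2 fold change -2.26 ± 0.36, edgeR adjusted p = 0.00014).

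Ranked by fold change alone, with unnamed genes left out, both ends of the list held genes with few counts or with near-identical copies. The 12 highest were Ighm, Snord69, Dpep2, Brms1, Cndp1, Aldh1a3, Pik3r5, Grin3b, Ermn, Snord1b, Kcng4 and Atp5mpl. Ighm, the constant region of immunoglobulin M, held 1.13, 3.29 and 0 at P4 and 106 and 96.8 at P13 and 214, 206 and 193 at P21, where the P4 libraries hold at most 3 counts and no fold is given. Aldh1a3, a retinoic acid synthesis enzyme, held 3.39, 7.67 and 17.5 normalised counts in the P4 libraries and 144 and 144 in the P13 libraries (log2 fold change 4.01 ± 0.46, edgeR adjusted p = 6.7e-06) and 12.7, 26.9 and 26.4 at P21, and was called above the mean of its neighbours. Atp5mpl, a small subunit of ATP synthase, held 34.99, 27.4 and 37.6 at P4 and 346 and 383 at P13 (log2 fold change 3.53 ± 0.23, edgeR adjusted p = 1.2e-07) and 18.3, 24.03 and 27.8 at P21. The small nucleolar RNAs Snord69 and Snord1b held 0, 2.19 and 2.504 at P4 and 65.2 and 46.97 at P13, and 3.39, 23.02 and 47.6 at P4 and 299 and 261 at P13, and at P21 stood at 1.41, 2.81 and 8.33, and 15.5, 26.9 and 38.9. Brms1, a transcriptional repressor, held 1.13, 0 and 2.59 at P4 and 25.9 and 31.96 at P13 and 20.01, 27.8 and 23.6 at P21.

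The 12 lowest were the 4 copies Rnu3b1, Rnu3b2, Rnu3b3 and Rnu3b4, then Rps27rt, Rps2-ps10, Stra6, Gcnt1, Tmem254c, Snora5c, Tead2 and Rpl17-ps3. The Rnu3b copies of U3 small nucleolar RNA, which share their reads, each held 132, 392 and 594 at P4 and 0.172 and 0 at P13, and 300.4, 402 and 438 at P21. Rps27rt and Rps2-ps10, retrocopies of ribosomal genes, had no count in either P13 library and 14.1, 21.8 and 15.8, and 25.4, 36.2 and 38.5, at P21, so both were detected again. Stra6, a retinol receptor of barriers, held 559.8, 424 and 422 at P4 and 0 and 3.76 at P13 and 1.41, 0 and 0 at P21. Gcnt1, a glycan enzyme, held 14.7, 21.9 and 10.02 at P4 and 0 and 0 at P13. A count of 0 allows up to 3 counts, which is 1.56 and 2.82 normalised counts in the P13 libraries, counting error only, and no fold is given against such values. By abundance the called genes were led by Malat1, the nuclear noncoding RNA, at 224720, 213900 and 231180 at P4 and 733700 and 677650 at P13 (log2 fold change 1.74 ± 0.29, edgeR adjusted p = 0.00019), followed by Meg3, Gm42418, Nefm and Rps3. Malat1 stood at 789420, 833360 and 752430 at P21.

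Peaks near the changed genes were counted as another readout of the same ages. The 4 ATAC-seq libraries held 115517 and 96168 peaks at P4 and 133513 and 171219 at P13, and depth behind them is unknown. Among the 100000 highest peaks by −log10 p, 13675 were found in both P13 libraries and overlapped no P4 peak, and 6953 the reverse. A P4-only peak lay within 50 kb of the start of 25.4% of the lower genes, 17.6% of the higher genes and 19.2% of the genes not called. P13-only peaks lay near 39.2% of the lower genes, 47.3% of the higher genes and 45.8% of those not called. The higher genes thus differed from genes not called by 1.49 percentage points for P13-only peaks, and the lower genes by 6.21 points for P4-only peaks and by -6.57 for P13-only peaks. With the 50000 highest peaks these last were 0.61 and 1.14 points. Without P4 replicate 2 the P4-only peaks numbered 16586, a P4-only peak lay near 50.4% of the lower genes, and the difference of the higher genes for P13-only peaks was -0.095 points. Genes are not replicates and no test was run.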

How the data were processed

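RNA of the P4 (3), P13 (2) and 13 other in vivo libraries was used. It was nuclear RNA except at E10.5, where whole sorted cells were taken. The authors trimmed reads with Trim Galore, aligned them to mm10 with STAR 2.5.2b and deposited RSEM 1.3.0 expected counts and TPM per gene. The kit was stranded, and whether strand was set in counting is not given in the sources used here. For ATAC-seq the authors called peaks per library with MACS2 2.2.7.1 and deposited fold enrichment, a ratio to background, and −log10 p.

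Rounded expected counts of 18 in vivo libraries, for genes that reached 5 CPM throughout the replicates of any 1 age, were fitted in R 4.3.3 with edgeR 4.0.16, TMM factors and 1 coefficient per age. Changes are log2 fold changes ± standard error from the quasi-likelihood test, with Benjamini-Hochberg adjustment over all 15030 genes. Normalised counts used median-of-ratios factors, and TPM served only ratios between genes. Start sites came from GENCODE vM21. Scripts were tested on simulated data. DESeq2 1.42.0 was an alternative.

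Members and gene lists were chosen with earlier results of these data known. Named were the 12 highest and 12 lowest called genes by fold change (unnamed genes left out), up to 5 called genes per list and members a list turns on, 4 identity genes and the 5 most abundant called genes. The comparison with P21 was added after the data were seen.

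Some items are not reported here.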

Additional observations from a re-analysis of the deposited data

How the results depend on the processing

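The 2006 changed genes numbered 1965 to 2826 under median-of-ratios scaling (729 higher, 1236 lower), without a CPM filter, with the 5 compared libraries alone, with DESeq2 (808 higher, 1412 lower) and with the likelihood ratio test. Leaving out 1 library gave 1287 to 1902 genes in all, 640 to 849 higher and 647 to 1053 lower, with both lowest values of the lower genes for the P13 replicates. In the test of P13 against the mean of P4 and P21, leaving out 1 library gave 531 to 865 genes in all and 448 to 660 above and 83 to 205 below. In that test 1319 genes in all and 445 below were called without a CPM filter, and below the mean 319 with the compared ages alone, 356 with DESeq2, 310 with the likelihood ratio test and 407 at an adjusted p under 0.05. With mean fragment length as a covariate the calls were 917 in all (343 higher, 574 lower) from P4 to P13, and 275 in all (212 above, 63 below) against the mean, and the median of the sex-linked list changed from 0.17 to -0.58. The causes were not tested. Of the 154 named genes called, 75 kept their call in that fit, 109 without P13 replicate 1 and 116 without P13 replicate 2.

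Labels number replicates 1 and 2 at both ages, but the animals were different, and deviations from the group means correlated at -0.07 and -0.06 across genes between same-numbered P4 and P13 libraries. A replicate block gave 1987 changed genes, 879 higher and 1108 lower, and 677 above and 207 below the mean of P4 and P21. Peak differences for lower genes were 0.61 (P4-only) and 1.14 points (P13-only) with the 50000 highest peaks. The depth behind the ATAC-seq peaks is unknown.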
